A study of Mus musculus with 6 samples.

Results

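Cytosolic and mitochondrial heat shock chaperones are represented here by 35 genes among the 22386 listed for MC38 cells, a line derived from a mouse colon tumour. They were chosen by gene name, with results of this same comparison already known, and comprise HSP70, HSP90, chaperonin, J-domain, small heat shock protein and co-chaperone genes with prefoldin subunit Pfdn2 and the transcription factor Hsf1. RNA-seq counts came from 6 libraries, 3 from cells carrying a control hairpin (shControl, genotype labelled WT) and 3 from cells carrying an shRNA that targets Acsl4 (shACSL4, labelled a knockdown), all grown in serum-containing medium. Acsl4 encodes an acyl-CoA synthetase for polyunsaturated fatty acids, and the series as a whole concerns its place in immune suppression by colorectal tumours. The series text calls the shACSL4 cells knockouts. The hairpin's sequence, and whether a group is 1 clone or several, are not given in the sources used here. Nothing states that the 3 libraries of a group came from separate cultures, so p-values measure the spread between these libraries, which may be technical.

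Heat shock proteins bind unfolded polypeptides, and many of them use ATP to fold these. HSP70 chaperones take up short hydrophobic stretches, J-domain proteins deliver clients to them and trigger their ATP hydrolysis, and nucleotide exchange factors release the client. HSP90 dimers receive partly folded kinases and receptors from HSP70 through co-chaperones. Chaperonins are closed barrels: the mitochondrial one is made of Hspd1 with an Hspe1 lid, and the cytosolic one, CCT, folds actin and tubulin handed over by prefoldin. Hsf1 drives many of these genes after heat or other stress through heat shock elements, which are arrays of alternating GAA and TTC units. Tumour cells commonly carry high amounts of these proteins.

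Library totals ran from 40911698 to 47127672 counts. Values in single libraries are given in the order of replicates 1, 2 and 3. Acsl4 itself measured 191, 194 and 204 counts-per-million (CPM) in shControl, against 132, 128 and 127 CPM in shACSL4, a log2 fold change of -0.61 ± 0.05 (SE). The control library shControl 3 stood apart from the other controls: the chi-square per degree of freedom over all genes was 37.3 and 41.8 against shControl 1 and 2, and 6.11 between those. Of the epithelial markers analysed, 5 of 7, the summed level was 0.759 to 0.993 CPM in shControl and 0.955 to 1.35 CPM in shACSL4, with Cdh1 and Krt18 below 0.1 CPM in all 6 libraries. Leukocyte markers, 3 of 5 analysed, summed to at most 0.095 and 0.373 CPM in the respective groups. The fibroblast and endothelial list summed to 757 to 860 CPM in shControl and 724 to 899 CPM in shACSL4, almost all of it Dcn, which averaged 668 and 523 CPM, and Pdgfra, which averaged 123 and 264 CPM. The part of these markers in the results below was not tested.

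Of the 35 genes, 33 had enough reads for the test. In shACSL4, 14 of the 33 fell, 3 rose and 16 were not called by edgeR's quasi-likelihood test at a Benjamini-Hochberg adjusted p of 0.05 over 14289 genes. Across all 14289 genes, 13.6% were called lower and 15.4% higher. Because the members were picked with this comparison in view, these counts describe them and nothing is read from the difference to the background. The genes that fell were all 8 CCT subunits, Hspa8, Hspa4, Dnajb6, Pfdn2, Fkbp4 and Chordc1, and those that rose were Hspa9, Trap1 and Hspb8. All changes were small, with log2 fold changes from -0.42 to 0.42 and a median of -0.07, beside -0.01 for all genes. Every shACSL4 library lay below every shControl library for 16 members and above for 5, where all genes gave 20.8% and 22%. In these bulk libraries, fewer cells of a kind and less RNA per cell cannot be told apart.

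Without shControl 1, the members' median was -0.12. The count of rises was 1 without shControl 1, shControl 2, shACSL4 2 or shACSL4 3, and 5 without shControl 3. The count of falls was 10 to 15 over the 6 libraries left out in turn. Over all genes, 2205 were called higher and 1950 lower with every library in. Without shControl 3 these all-gene counts were 2818 and 2659. With any other library left out they were 1666 to 1758 and 1252 to 1454. Among members, the median relative SD between libraries of a group was 4.10% in shControl and 3.62% in shACSL4. It was highest for Hspa1b, at 14.4% and 18.5%.

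**Figure D1:**
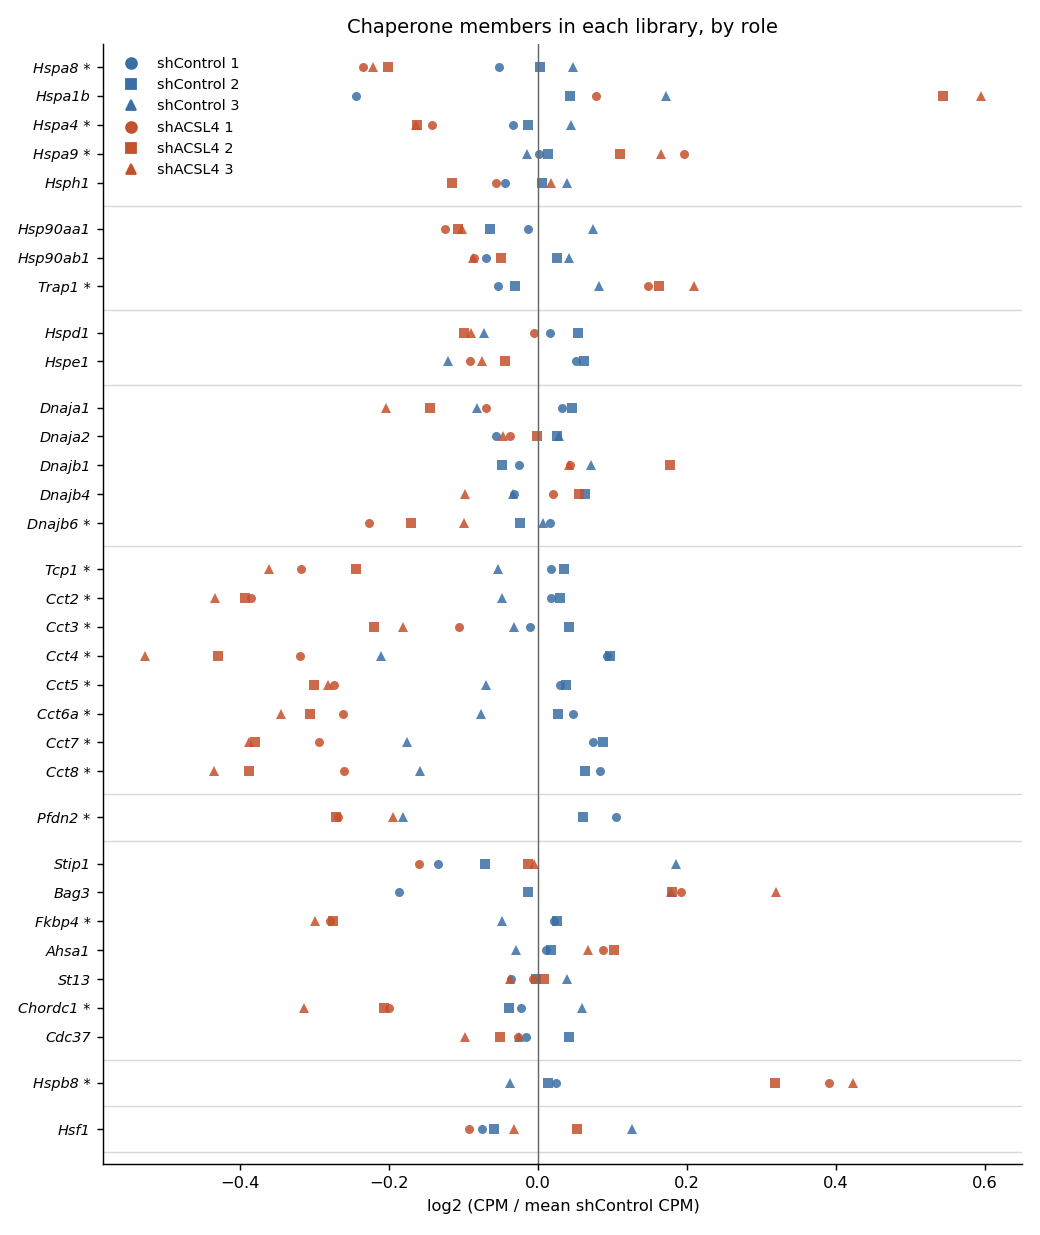
Each row is 1 of the 33 tested chaperone genes, ordered by role, and each point is 1 library, placed at the log2 ratio of its CPM to the mean shControl CPM. Stars mark the genes called higher or lower; the 8 CCT genes lie between -0.42 and -0.17 in fitted log2 fold change, with Hspb8 at 0.38 on the other side.

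Levels between genes were compared on the authors' FPKM values. These divide by a gene length that is not defined, and the order of genes depends on it. In shControl, Hsp90ab1 was the most abundant member at 1164 ± 36.4 FPKM (mean ± SD, n = 3), the 11th highest of all genes. Hspa8 followed with 822 ± 18.2 FPKM, Hsp90aa1 with 573 ± 22.6 and Hspd1 with 525 ± 29.1. Hsp90aa1 and Hspd1 are neighbours in this order, and their library values do not overlap. Of the CCT genes, Cct2 (319 ± 12.9 FPKM) and Cct5 (319 ± 16.9 FPKM) did not differ beyond their spread, and Cct7 was at 70.3 ± 7.79 FPKM. At the low end were Hsf1 (7.42 ± 0.49 FPKM) and Hspa1b (2.17 ± 0.29 FPKM).

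The 35 genes together held 2.24%, 2.26% and 2.21% of all counts in the control libraries, against 2.06%, 2.04% and 2.03% under the Acsl4 hairpin. The shares of the groups do not overlap. By summed FPKM, the shACSL4 to shControl ratio was 0.917 for all members, 0.934 for HSP70, 0.955 for HSP90, 0.962 for the mitochondrial chaperonin, 0.972 for the J-domain genes, 0.951 for the co-chaperones and 0.798 for CCT. These ratios are descriptions of the lists, and differences between lists were not tested.

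**Figure D2:**
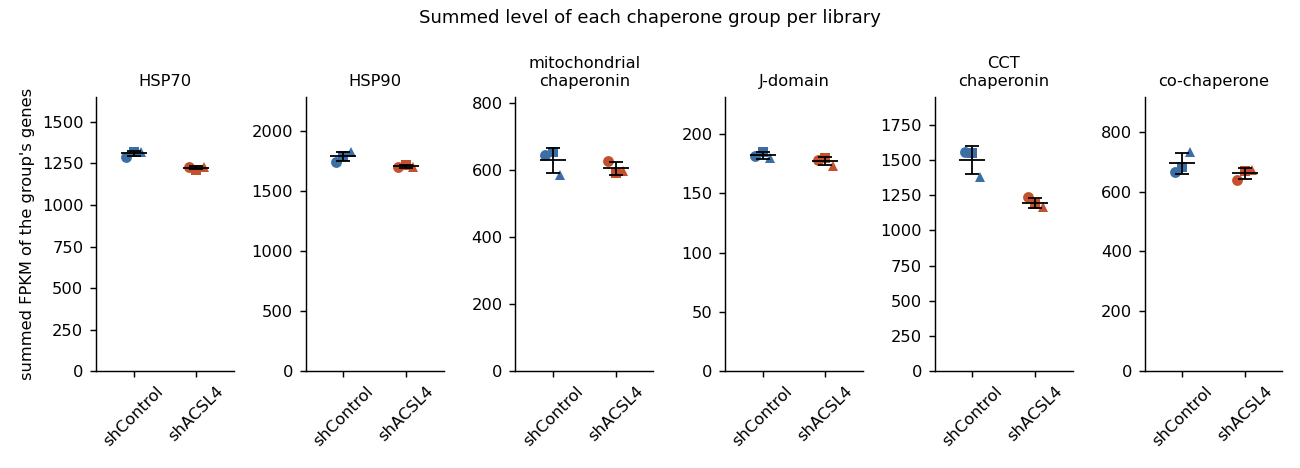
Summed FPKM of each chaperone group (vertical axes from 0, scaled per panel) in the 6 libraries, with bars for the mean and SD of 3 libraries. The CCT sum was 1497 ± 99.6 FPKM in shControl and 1195 ± 36.8 FPKM in shACSL4, whereas the mitochondrial chaperonin sums overlap.

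**Figure D3:**
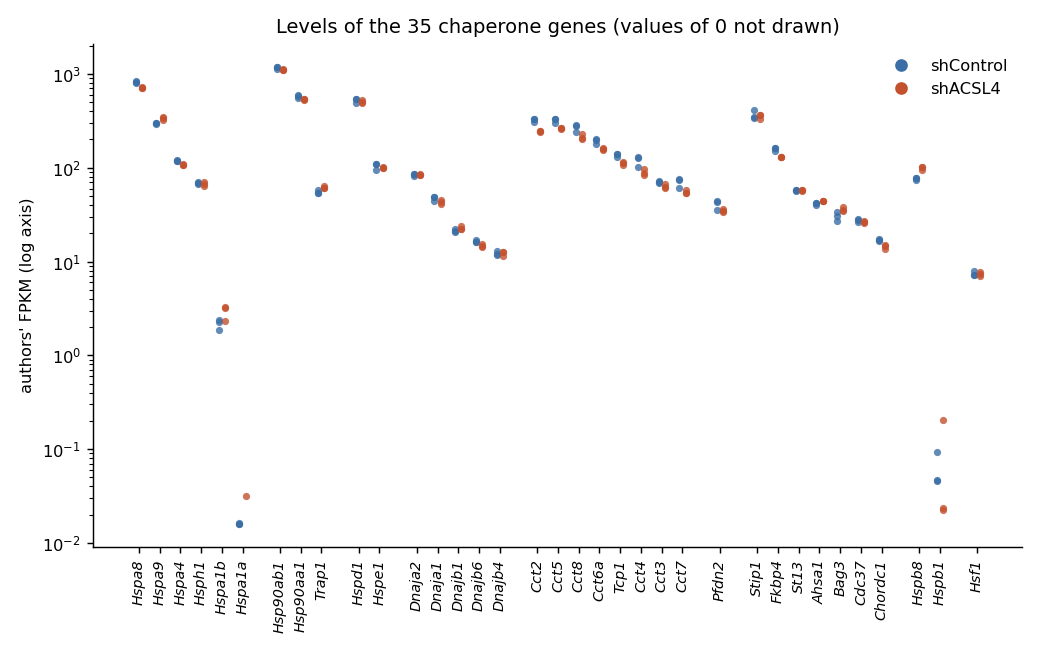
FPKM of all 35 chaperone genes on a log axis, ordered within each role by shControl level, with 1 point per library; values of 0 are not drawn. Levels run from 1164 FPKM for Hsp90ab1 down to Hspa1a and Hspb1, which were near 0 in both groups.

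RefSeq promoter windows, from 250 bases before to 50 after a start site on GRCm38.p6, were matched by symbol for 28 of the 35 genes, with 38 windows in all. They were searched on both strands for 3 adjoining heat shock units (GAANNTTCNNGAA or TTCNNGAANNTTC) and for 2 (GAANNTTC or TTCNNGAA), the second also counting every match of the first. Hspa8, Hspa9, Hsp90aa1, Hsp90ab1, Cct4, St13 and Hsf1 had no window and were not searched. Matches of 3 units were found for 5 of 28 genes, Hsph1, Hspd1, Hspe1, Chordc1 and Dnajb6. They were in 7 of the 38 member windows (18.4%), beside 0.603% of all 32851 promoter windows. The same DNA is matched in both Hsph1 windows, in both Dnajb6 windows, and in an Hspd1 and the Hspe1 window. The 7 windows are therefore not independent. Matches of 2 units were found for 17 of 28 genes and in 19 of the 38 member windows, beside 15.1% of all windows. None of the 7 CCT genes with a window held 3 units, and 3 of 7 held 2 units (Cct2, Cct5 and Cct6a). A match describes letters in the window and no binding was measured. By call, the genes with 3 units included 2 that fell (Chordc1 and Dnajb6) and 3 that were not called (Hsph1, Hspd1 and Hspe1). Of the genes that rose, Trap1 and Hspb8 had no match of 3 units and Hspa9 was not searched.

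Stretches from 110 bases before to 30 after a start site are printed for 7 genes, 5' to 3' on the strand of the gene. They set the fallen CCT genes Cct2 and Cct5 beside heat shock genes that fell, rose or were not called. Every stretch printed holds a match. Cct2 and Cct5 each have another window without a match, and Cct3, Cct7, Cct8 and Tcp1 had no match. None of those windows is printed. Capitals mark the matched units. The stretches lie at chr1:55088038-55088177 (+) for Hspe1, chr9:18292157-18292296 (+) for Chordc1, chr5:29735788-29735927 (+) for Dnajb6, chr10:117063346-117063485 (-) for Cct2, chr15:31601817-31601956 (-) for Cct5, chr5:116422835-116422974 (-) for Hspb8 and chr17:34959209-34959348 (-) for Hspa1b.
Hspe1: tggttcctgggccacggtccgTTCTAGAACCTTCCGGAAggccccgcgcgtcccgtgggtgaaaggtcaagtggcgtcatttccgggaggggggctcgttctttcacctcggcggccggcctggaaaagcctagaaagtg
Chordc1: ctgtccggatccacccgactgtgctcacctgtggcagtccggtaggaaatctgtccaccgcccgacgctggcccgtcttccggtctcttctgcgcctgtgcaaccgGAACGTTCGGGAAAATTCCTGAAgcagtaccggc
Dnajb6: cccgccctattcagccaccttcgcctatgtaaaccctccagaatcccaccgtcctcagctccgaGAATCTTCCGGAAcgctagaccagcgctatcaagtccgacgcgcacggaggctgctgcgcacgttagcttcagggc
Cct2: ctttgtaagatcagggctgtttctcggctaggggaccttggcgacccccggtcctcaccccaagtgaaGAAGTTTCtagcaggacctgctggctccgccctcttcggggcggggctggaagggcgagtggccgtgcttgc
Cct5: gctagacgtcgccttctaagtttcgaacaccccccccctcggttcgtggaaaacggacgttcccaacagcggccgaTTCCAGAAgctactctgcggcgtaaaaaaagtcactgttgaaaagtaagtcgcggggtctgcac
Hspb8: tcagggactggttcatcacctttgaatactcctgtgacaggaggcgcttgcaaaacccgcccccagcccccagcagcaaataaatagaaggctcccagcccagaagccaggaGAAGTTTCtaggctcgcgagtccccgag
Hspa1b: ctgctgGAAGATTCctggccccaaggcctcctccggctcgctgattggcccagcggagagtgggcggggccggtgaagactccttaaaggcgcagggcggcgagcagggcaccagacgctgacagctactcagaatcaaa

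The Hspe1 stretch carries alternating TTC and GAA units in 1 unbroken array, 89 to 72 bases before the start. Hspd1 and Hspe1 are read in opposite directions, with 215 bases between the Hspe1 start site and 1 Hspd1 start site. This array is the same DNA in the Hspe1 window and in the window of that Hspd1 start site. The other Hspd1 window, at chr1:55088194-55088493 (-), holds no heat shock match. In Chordc1 the array runs across the start site, from 4 bases before to 19 after. Dnajb6 has 3 units from 46 to 34 bases before 1 of its start sites. Cct2, Cct5, Hspb8 and Hspa1b have a single 2-unit match each in the stretches shown. Hspa1a has the same 2-unit match as Hspa1b, and their windows are identical at 296 of 300 bases.

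**Figure D4:**
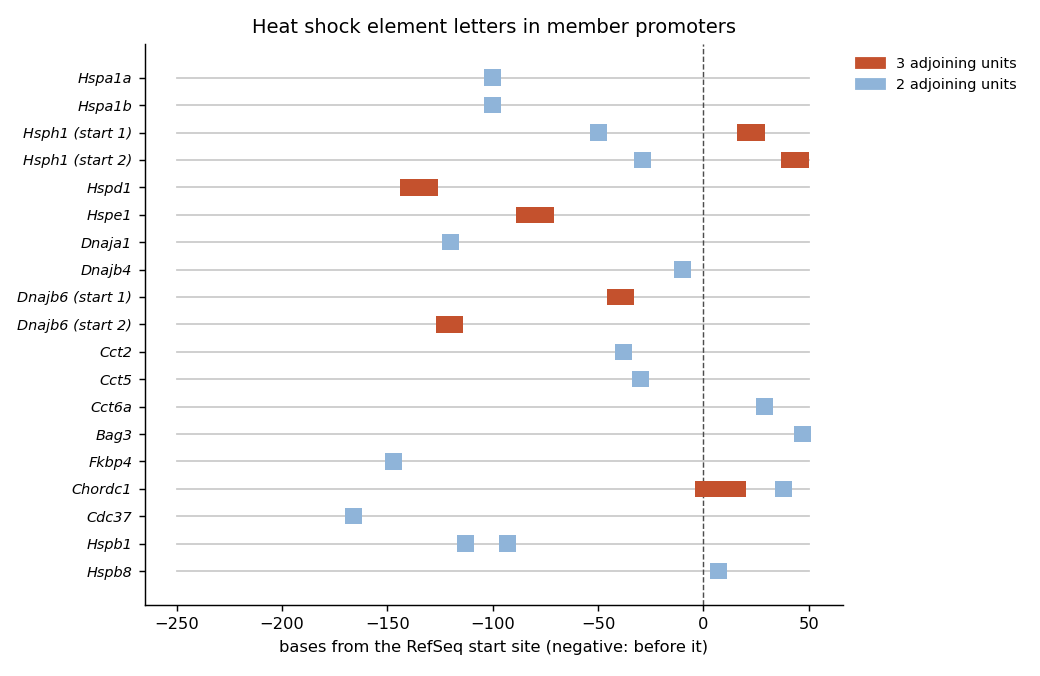
Position of the heat shock element matches (bases from the RefSeq start site, negative before it) in the windows that hold one, with grey lines for the 300 bases searched. Matches of 3 or more adjoining units are in Hsph1, Hspd1, Hspe1, Dnajb6 and Chordc1, and the CCT genes shown have 2 units.

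Among HSP70 genes, Hspa8 and Hspa4 fell and Hspa9 rose, with Hspa1b and Hsph1 not called. Hspa8, the constitutive cytosolic HSP70, measured 3427, 3561 and 3671 CPM in shControl, against 3019, 3089 and 3048 CPM in shACSL4. All 3 shACSL4 libraries were below the lowest control, and the fitted log2 fold change was -0.22 ± 0.05 (SE; edgeR adjusted p = 0.00660), so that it fell by 14.1%. Hspa4, an HSP110-type exchange factor for HSP70, had 651, 660 and 687 CPM in the controls and 603, 595 and 595 CPM in shACSL4. Its groups did not overlap either, and its log2 fold change was -0.16 ± 0.05 (edgeR adjusted p = 0.0328).

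Hspa9, the mitochondrial HSP70 that pulls imported proteins across the inner membrane, went the other way. It had 1284, 1295 and 1269 CPM in shControl and 1469, 1384 and 1438 CPM in shACSL4, so that the lowest shACSL4 library was above every control. The log2 fold change was 0.16 ± 0.05 (edgeR adjusted p = 0.0322). The calls of Hspa4 and Hspa9 were lost when any library other than shControl 3 was left out, at adjusted p-values of 0.0609 to 0.123 and 0.0503 to 0.158, and that of Hspa8 was lost without shACSL4 1 (adjusted p = 0.0531). For Hspa8, 74.8% of the 50-base windows of its transcript also occur in transcripts of other genes, mainly those of Gm15459, annotated as a processed pseudogene, and the sources used here do not say how shared reads were counted.

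Hspa1b, the heat-inducible HSP70, averaged 6.11 ± 0.88 CPM in shControl and 8.19 ± 1.52 CPM in shACSL4. Its groups overlapped, and the log2 fold change of 0.42 ± 0.16 had an edgeR adjusted p of 0.0641. It was called in 5 of the 13 alternative settings: DESeq2's Wald test (adjusted p = 0.0472), no filter (0.0227), the replicate block (0.0144), without shControl 3 (0.0149) and without shACSL4 1 (0.0230). Over the 13 the log2 fold change ran from 0.31 to 0.57, and the adjusted p reached 0.228. Its near-identical neighbour Hspa1a had 0 to 4 counts per library, at most 0.0932 CPM, and was not tested. The genes lie 9951 bases apart on chromosome 17, and 62.3% of the 50-base windows of Hspa1b also occur in Hspa1a, so the split of reads between them is uncertain. Hsph1, another HSP110-type exchange factor, averaged 504 ± 14.7 and 486 ± 22.3 CPM, with overlapping groups and a log2 fold change of -0.05 ± 0.05.

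The cytosolic HSP90 genes were not called, and their mitochondrial relative Trap1 rose. Hsp90ab1, the constitutive cytosolic HSP90, had 3341, 3569 and 3606 CPM in shControl and 3302, 3386 and 3298 CPM in shACSL4. The groups overlapped, and the log2 fold change was -0.07 ± 0.05 (edgeR adjusted p = 0.319). Hsp90aa1, the stress-inducible form, had 2242, 2164 and 2382 CPM in shControl and 2076, 2101 and 2108 CPM in shACSL4. Its 3 shACSL4 values were all below the controls without reaching the threshold (log2 fold change -0.11 ± 0.05, edgeR adjusted p = 0.141), and 58.5% of its windows occur in other genes' transcripts.

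Trap1, the HSP90 of the mitochondrial matrix, had 136, 138 and 150 CPM in shControl and 157, 158 and 164 CPM in shACSL4. No shACSL4 library reached down to the controls, and the log2 fold change was 0.17 ± 0.05 (edgeR adjusted p = 0.0315). As for Hspa9, the call was lost when any library other than shControl 3 was left out, at adjusted p-values of 0.0713 to 0.135. shControl 3 was the highest control for all 3 HSP90 genes and for 4 of the 5 tested HSP70 genes.

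Neither gene of the mitochondrial chaperonin was called. Hspd1, the barrel subunit also known as HSP60, had 1406, 1444 and 1322 CPM in shControl and 1386, 1298 and 1306 CPM in shACSL4. Hspe1, the lid subunit, had 159, 160 and 141 CPM in shControl and 144, 149 and 145 CPM in shACSL4. Both sets of values overlapped between groups, with shControl 3 the lowest control for both genes, and the log2 fold changes were -0.06 ± 0.06 and -0.07 ± 0.06. Of the windows of each transcript, 44.8% occur in other genes' transcripts, mainly those of the processed pseudogene Hspd1-ps3 for Hspd1 and of AC117239.2 for Hspe1. The gene models of Hspd1 and Hspe1 overlap by 112 bases on chromosome 1 of GRCm39.

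The ratio of Hspa9 to Hspd1 FPKM was 0.559, 0.549 and 0.588 in shControl and 0.650, 0.654 and 0.675 in shACSL4, with no overlap. The ratio of Hspa8 to Hsp90ab1 was 0.715, 0.696 and 0.710 in shControl and 0.638, 0.636 and 0.644 in shACSL4, again with no overlap. The FPKM ratio of the barrel gene Hspd1 to the lid gene Hspe1 was 4.94 to 5.24 in shControl and 4.87 to 5.38 in shACSL4. The size of such a ratio depends on the undefined gene length and is not a proportion of molecules. These ratios use the comparison that was in view when the genes were chosen and are given without a test.

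Of the 5 J-domain genes, the HSP70 partners, 1 fell and none rose, beside 13.6% lower and 15.4% higher over all genes. Dnajb6, which keeps aggregation-prone proteins soluble, had 101, 98.4 and 101 CPM in shControl and 85.5, 89.0 and 93.4 CPM in shACSL4. The highest shACSL4 library was below the lowest control, and the log2 fold change was -0.16 ± 0.05 (edgeR adjusted p = 0.0378). Leaving out shControl 1 or 2 gave an adjusted p of 0.112 or 0.0699, and leaving out shACSL4 1 or 2 gave 0.158 or 0.0980. In its transcript, 42.8% of the windows occur in other genes' transcripts.

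Dnaja1, a cytosolic partner of HSP70, had 420, 423 and 387 CPM in shControl and 391, 371 and 356 CPM in shACSL4. Its groups overlapped through shControl 3, and the log2 fold change of -0.14 ± 0.06 had an edgeR adjusted p of 0.0914. The adjusted p was 0.00881 without that library and 0.0255 with the replicate block, and 0.0990 to 0.316 with any of the other 5 libraries left out. For Dnaja1, 28.8% of the windows of its transcript also occur in other genes' transcripts. Dnajb1, the heat-inducible HSP40, had 67.4, 66.3 and 72.0 CPM in shControl and 70.6, 77.6 and 70.6 CPM in shACSL4. Its values overlapped, with a log2 fold change of 0.09 ± 0.06 (edgeR adjusted p = 0.311). Dnaja2, the most abundant of the 5 by FPKM, had 244, 258 and 258 CPM in shControl and 247, 253 and 245 CPM in shACSL4. These values cannot be separated by group, and neither can those of Dnajb4, which averaged 108 ± 4.19 and 107 ± 5.86 CPM.

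All 8 subunit genes of the cytosolic chaperonin CCT fell in shACSL4, and for each of them every shACSL4 library lay below every control. Their log2 fold changes ran from -0.17 for Cct3 to -0.42 for Cct4, with a median of -0.33 beside -0.01 over all genes. Cct2 had 830, 837 and 793 CPM in shControl and 628, 624 and 607 CPM in shACSL4. The gap between the groups was far wider than the spread within either, and the log2 fold change was -0.40 ± 0.05 (edgeR adjusted p = 8.34e-05), so that it fell by 24.4%.

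Tcp1, the alpha subunit, had 699, 707 and 665 CPM in shControl and 554, 583 and 537 CPM in shACSL4. Cct6a, the zeta subunit, had 700, 690 and 642 CPM in shControl and 565, 548 and 533 CPM in shACSL4. In both genes shControl 3 was the lowest control and was still above each shACSL4 library, with log2 fold changes of -0.31 ± 0.05 and -0.30 ± 0.05 (edgeR adjusted p = 0.00107 and 0.00119).

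The other subunits were described by their group means. Cct4 averaged 503 ± 59.2 CPM in shControl and 375 ± 27.0 CPM in shACSL4, a log2 fold change of -0.42 ± 0.08. Cct8 averaged 833 ± 75.3 and 650 ± 41.1 CPM (-0.36 ± 0.07), and Cct7 averaged 478 ± 47.6 and 375 ± 13.5 CPM (-0.35 ± 0.07). Those 3 genes had the widest spread among the controls of the CCT set, at 9.03% to 11.8% of the mean, with shControl 3 as the low library in each. Cct5 averaged 886 ± 36.4 and 727 ± 7.05 CPM (-0.29 ± 0.05). Cct3, which changed least, averaged 451 ± 11.9 and 401 ± 16.3 CPM (-0.17 ± 0.05, edgeR adjusted p = 0.0315).

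**Figure D5:**
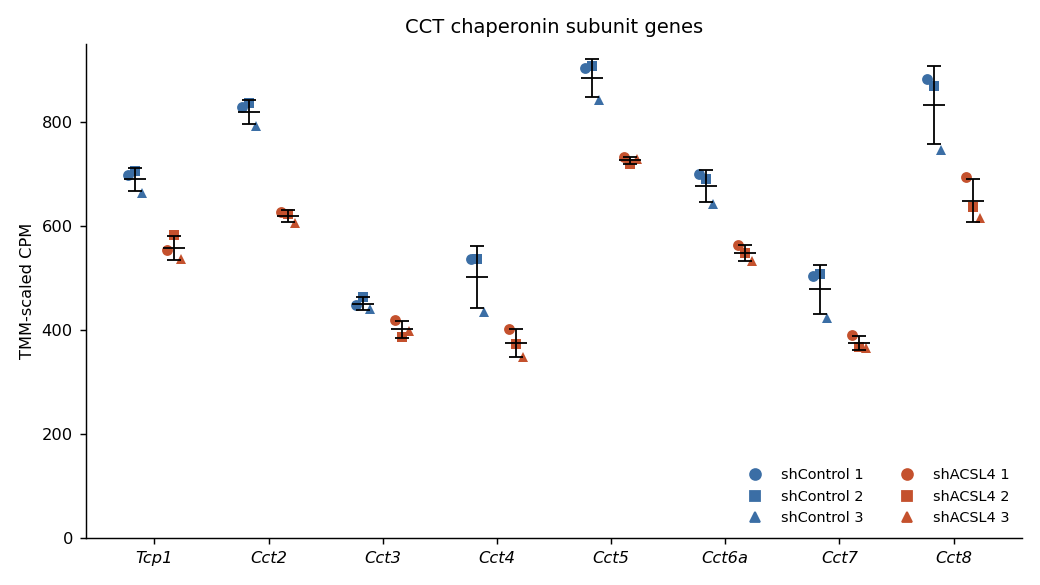
CPM of the 8 CCT chaperonin subunit genes in each library (vertical axis from 0), with bars for the mean and SD of 3 libraries. In all 8 genes shControl 3 is the lowest control and lies above the 3 shACSL4 libraries, as with Cct2 at 793 against at most 628 CPM.

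shControl 3 was the lowest control for 8 of 8 CCT genes. Relative to the control mean, the median CCT gene was at 0.04, 0.04 and -0.07 on the log2 scale in the control libraries, against -0.28, -0.34 and -0.37 in shACSL4. Without shControl 3, all 8 genes were called lower with a median log2 fold change of -0.38. With shControl 1, shControl 2, shACSL4 2 or shACSL4 3 left out, 7 of the 8 were called, and Cct3 was lost at adjusted p-values of 0.0768 to 0.117. The other 7 were called in all 13 alternative settings.

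The subunits enter the CCT ring in equal numbers, whereas their FPKM values were unequal. FPKM divides by a gene length that is not defined, so these shares need not be shares of RNA molecules. By CPM, which uses no gene length, Cct2 and Cct7 averaged 820 and 478 in shControl. Their longest coding transcripts had 1959 and 2441 bases. Cct2 made up 21.4% ± 0.58 of the summed CCT FPKM in shControl and 20.4% ± 0.29 in shACSL4. Cct5 made up 21.3% ± 0.30 and 22.1% ± 0.58. Cct3 made up 4.72% ± 0.19 and 5.29% ± 0.15, and Cct7 4.69% ± 0.22 and 4.64% ± 0.06. The sum itself went from 1497 to 1195 FPKM.

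On GRCm39 the 8 genes lie on 8 different chromosomes, with Tcp1 at chr17:13134588-13143954, Cct2 at chr10:116886906-116899719, Cct3 at chr3:88204423-88229074 and Cct4 at chr11:22940519-22953780. Cct5 lies at chr15:31590946-31601950, Cct6a at chr5:129864062-129875212, Cct7 at chr6:85428496-85445457 and Cct8 at chr16:87280214-87292761. Several CCT genes share bases with a neighbour. Of the windows of Tcp1, 22.2% occur in other transcripts, mainly those of Acat3, which averaged 0.916 and 0.978 CPM. Cct6a shares 16.8% with Psph, which stood at 58.7 ± 9.32 CPM in shControl and fell (log2 fold change -0.32 ± 0.11). Cct7 shares 6.94% with Pradc1, which rose from 6.01 ± 0.38 to 10.02 ± 1.61 CPM (0.74 ± 0.14), and Cct8 shares 6.10% with Usp16, which was not called (-0.10 ± 0.06). The sources used here do not state whether counting used the strand, so reads from overlapping genes cannot be told apart. Cct2 and Cct5 share no window with any other gene's transcript.

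Pfdn2, a prefoldin subunit that takes part in handing actin and tubulin to CCT, also fell. It had 85.6, 83.1 and 70.2 CPM in shControl and 66.1, 66.0 and 69.6 CPM in shACSL4. Of the windows of its transcript, 28.8% also occur in transcripts of Klhdc9. The groups are separated by less than 1 CPM, since shControl 3 sits just above shACSL4 3. The log2 fold change was -0.24 ± 0.07 (edgeR adjusted p = 0.0246). Leaving out shControl 1 gave an adjusted p of 0.117, leaving out shControl 2 gave 0.0903, and leaving out shACSL4 1 or 2 gave 0.0877 or 0.0861.

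Of the 7 co-chaperones, Fkbp4 and Chordc1 fell and none rose, beside 13.6% lower and 15.4% higher over all genes. Fkbp4, an HSP90-bound peptidyl-prolyl isomerase of steroid receptor complexes, had 447, 449 and 426 CPM in shControl and 363, 364 and 358 CPM in shACSL4. The groups were well separated, with a log2 fold change of -0.28 ± 0.05 (edgeR adjusted p = 0.00107). Chordc1, a zinc-binding HSP90 partner, had 126, 124 and 133 CPM in shControl and 111, 111 and 103 CPM in shACSL4. Each shACSL4 library was below each control, with a log2 fold change of -0.24 ± 0.06 (edgeR adjusted p = 0.00635).

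Bag3, an HSP70 exchange factor that works with Hspb8 in the autophagic removal of damaged proteins, had 68.7, 77.5 and 88.5 CPM in shControl and 89.3, 88.6 and 97.6 CPM in shACSL4. The highest control, shControl 3, came within 1 CPM of the lowest shACSL4 library, and the log2 fold change of 0.23 ± 0.08 missed the threshold (edgeR adjusted p = 0.0564). Bag3 was called in 6 of the 13 alternative settings: library size alone, DESeq2's Wald test, no filter, the stricter filter, the replicate block and without shControl 3. The log2 fold change was 0.33 without shControl 3 (edgeR adjusted p = 0.000244) and 0.14 without shControl 1 (0.219). With any of the other 4 libraries left out the adjusted p was 0.0972 to 0.193. Stip1, which bridges HSP70 and HSP90, had 702, 733 and 876 CPM in shControl and 689, 763 and 767 CPM in shACSL4. Its values overlapped, and its log2 fold change of -0.06 ± 0.08 was 0.05 without shControl 3.

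The remaining co-chaperones were not called. Ahsa1, which stimulates the ATPase of HSP90, averaged 182 ± 3.18 CPM in shControl and 193 ± 2.33 CPM in shACSL4 (log2 fold change 0.09 ± 0.05), without overlap. Of the windows of the Ahsa1 transcript, 14.6% also occur in other genes' transcripts. Cdc37, which brings kinases to HSP90, averaged 227 ± 5.72 and 218 ± 5.38 CPM (-0.06 ± 0.05). St13, which binds HSP70, averaged 592 ± 15.5 and 587 ± 9.39 CPM (-0.01 ± 0.05).

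Hspb8, a small heat shock protein that keeps unfolded proteins from clumping, had the smallest adjusted p among the members that rose. It had 152, 151 and 145 CPM in shControl and 196, 186 and 200 CPM in shACSL4. No overlap was seen, and the log2 fold change was 0.38 ± 0.05 (edgeR adjusted p = 0.000179), 29.9% above the controls. The call held in all 13 alternative settings, and no window of its transcript occurs in another gene. The FPKM ratio of Hspb8 to its partner Bag3 was 2.90, 2.55 and 2.16 in shControl and 2.88, 2.76 and 2.69 in shACSL4, with overlapping groups. Hspb1, the other small heat shock protein, had 1 to 10 counts per library, at most 0.211 CPM, and was not tested.

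Hsf1, the transcription factor of the heat shock response, had 50.2, 50.8 and 57.8 CPM in shControl and 49.7, 54.9 and 51.8 CPM in shACSL4. The groups overlapped, and the log2 fold change was -0.02 ± 0.07 (edgeR adjusted p = 0.840). It was 0.05 without shControl 3 and 0.01 without shACSL4 1. RNA level does not measure the activity of this factor, which is set largely after translation.

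Grouped by compartment, 2 of the 4 mitochondrial members rose (Hspa9 and Trap1) and none fell, and their summed FPKM was 979 ± 41.5 in shControl and 999.7 ± 28.9 in shACSL4. Among the 29 tested cytosolic members, 14 fell and 1 rose, with a median log2 fold change of -0.14. Over all genes, 15.4% were called higher and 13.6% lower. The mitochondrial rises had edgeR adjusted p-values of 0.0322 (Hspa9) and 0.0315 (Trap1). Each was called in 8 of the 13 alternative settings, and was lost with most of the single libraries left out. The difference between compartments was not tested, and 8 of the cytosolic falls are CCT subunits.

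The authors' deposited table gave the same log2 fold changes to within 0.00136. At its own adjusted p, 4 of the members were higher and 13 lower: the authors' deposited table called Bag3 (adjusted p = 0.0492) and did not call Dnajb6 (adjusted p = 0.0531).

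The wider chaperone network was read from 75 further genes, also listed with results of these data known, of which 73 were in the table and 70 were tested. Of the 70, 17 fell and 11 rose, beside 13.6% lower and 15.4% higher over all genes, with a median log2 fold change of -0.05. The strongest rises by adjusted p were Hspa12a, a distant HSP70 relative (log2 fold change 1.05 ± 0.08, from 17.8 ± 0.10 to 37.1 ± 3.71 CPM), Dnajc5, the cysteine string protein (0.28 ± 0.05), and Hscb, a mitochondrial co-chaperone of iron-sulfur cluster assembly (0.75 ± 0.13). The strongest falls were Hsf2, a second heat shock factor (-0.40 ± 0.06), Bag4, an HSP70 exchange factor (-0.47 ± 0.08), and Hspa2, an HSP70 best known from germ cells (-1.11 ± 0.20, from 3.17 ± 0.40 to 1.47 ± 0.13 CPM).

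By list, prefoldin and chaperonin cofactors had 5 falls and no rise among 9 tested genes, with a median log2 fold change of -0.17. The 5 were the prefoldin subunits Vbp1 (-0.25 ± 0.06), Pfdn4 (-0.30 ± 0.10) and Pfdn5 (-0.17 ± 0.06) and the CCT-binding phosducin-like proteins Pdcl (-0.28 ± 0.08) and Pdcl3 (-0.17 ± 0.06). HSP90 cofactors had 5 falls and no rise among 12 genes, including Ppid (-0.29 ± 0.06), a cyclophilin of the same complexes as Fkbp4, and Ptges3 (-0.27 ± 0.06), the p23 protein. Other J-domain genes had 7 rises and 1 fall among 17, and the rises included the mitochondrial members Dnaja3 (0.23 ± 0.05) and Dnajc15 (0.24 ± 0.08) beside Hscb. The mitochondrial members Dnajc19 (-0.04 ± 0.10) and Dnajc11 (-0.05 ± 0.06) were not called. Elsewhere in the wider list, Grpel2, an exchange factor of mitochondrial HSP70, fell (-0.25 ± 0.08). Its relative Grpel1 was not called (-0.02 ± 0.06). Of the 7 mitochondrial protease and disaggregase genes, the inner membrane protease Yme1l1 fell (-0.27 ± 0.05) and the protease Afg3l2 rose (0.26 ± 0.05). The other 5, Lonp1, Clpp, Clpx, Clpb and Htra2, were not called. The genes in this paragraph were named after their values were seen, and differences between lists were not tested.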

How the data were processed

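RNA-seq of 6 MC38 libraries, 3 shControl and 3 shACSL4, was taken from a table of 22386 genes. Per the submitters' processing notes, CASAVA, HISAT2 and DESeq2 were used with GRCm39; the read counter, annotation release and strandedness are not given in the sources used here. The deposited raw counts per gene were whole numbers, and every per-sample column was used. FPKM values in the deposited table were made by the authors from those counts, with a gene length that is not defined. The log2 fold changes and p-values in the deposited table are the authors' own.

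The 35 members and the gene lists were chosen with earlier results of these data known. Counts were tested in R 4.3.3 with edgeR 4.0.16 (TMM, filterByExpr with min.count 10 and min.total.count 15, robust quasi-likelihood, group only), two-sided, with Benjamini-Hochberg adjustment over 14289 genes and a threshold of 0.05. SE is the log2 fold change over the square root of F. CPM is TMM-scaled. Totals were 41813345, 40911698 and 42058293 counts for the controls and 41134232, 42950108 and 47127672 for shACSL4, by replicate number. A count of 0 allows up to 3 counts, or 0.0634 to 0.0734 CPM, for counting error only. Replicate numbers were checked for pairing. Same-numbered libraries deviated together with r = 0.0826, 0.0637 and 0.126, and differently numbered ones with r from -0.116 to 0.0463. These weak values do not settle whether the libraries were paired. The main fit used group only, and a replicate block was an alternative. The workflow was tested on simulated data.

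Values in all 6 libraries are given for the 3 members of each role with the smallest adjusted p and the member with the highest control FPKM. Of the wider list, the 3 smallest adjusted p-values per direction are named. Alternatives were DESeq2 1.42.0 (its size factors in edgeR, and its Wald test), limma-voom (limma 3.58.1), library size alone, no filter, a harder one (at least 1 CPM in at least 3 libraries and 60 counts in all), a replicate block and each library left out. Shared sequence was the share of 50-base windows of a member's longest coding transcript found in another gene's GENCODE M21 transcripts; Cct6a has none there and its longest other transcript was used. Promoters are RefSeq's, on GRCm38.p6, and were not placed on the GRCm39 coordinates of the table.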

Additional observations from a re-analysis of the deposited data

How the results depend on the processing

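Over the 13 alternatives, the counts of members called lower stayed between 10 and 15 and those of CCT genes called lower between 7 and 8. The CCT count was added as a result after seeing the data. The count called higher was 5 with DESeq2's Wald test, 5 with no filter and 5 with the replicate block, and ranged from 1 to 5 with each library left out. Over all genes, the count called higher ranged from 1666 to 2818 with each library left out. The median log2 fold change of members ranged from -0.120 to -0.0819 with each library left out. The replicate block gave 15 members lower and 8 CCT genes lower, and every library correlated best with its own number, a hint from the data and not from the design. With each library left out, the log2 fold change of Stip1 ranged from -0.123 to 0.0473 and that of Hsf1 from -0.0629 to 0.0474; both were above 0 without shControl 3, and Hsf1 also without shACSL4 1 (0.0104). The cause was not tested. Single-gene values were counted for the 22 members with values given in all 6 libraries. Of the others among these, 251 kept direction and side of the threshold, 24 lost a call and 8 gained one. Cct3 and Hspa1b, whose changes of call are given above, are not in this count. Tcp1, Cct2, Cct4, Cct5, Cct6a, Cct7, Cct8, Fkbp4, Chordc1 and Hspb8 were called under all 13. Hspa1a and Hspb1 had at most 4 and 10 counts in a library and were too low to test; 66.3% and 51.7% of their 50-base windows occur in other genes, and the part of this in their counts was not tested.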
